A study of Mus musculus with 12 samples.

Results

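Baseline expression was described in the control tumours of a study of curcumin and swimming in mice bearing 4T1 mammary tumours. The control group was selected by its sample titles and comprised 3 of the 12 RNA-seq libraries. 4T1 is a mouse mammary carcinoma line that grows in BALB/c hosts, and the cells injected here were labelled 4T1-LUC, a luciferase derivative. According to the protocol, 0.2 ml of cell suspension was placed under the skin of the chest and abdominal wall of BALB/c hosts between 4 and 6 weeks old, with 5 mice in a group. The control mice were gavaged with 200 µL every afternoon, with corn oil as the labelled treatment and no curcumin or swimming. All libraries of the series share the cell line and the host strain. The labels do not say whether the 3 libraries came from separate tumours, so the spread between them may be technical, nor how the tissue was trimmed. The labelled cell type is breast cancer cell, but whole tumours also hold host stroma, vessels and leukocytes, and fewer cells of a type cannot be told apart from less RNA per cell. No treated library was used.

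4T1 is known as an aggressive, metastatic line that keeps epithelial keratins while expressing mesenchymal genes. It is a common model of hormone receptor-negative breast cancer. Its tumours secrete granulocyte colony-stimulating factor, which drives the production of neutrophils and related myeloid cells in the host, and they are rich in macrophages.

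Expression is given as FPKM, a count scaled by gene length and library total, which puts genes of different length on 1 scale. Some genes usually abundant, such as Gapdh, were low here for a reason that was not tested, so ranks between genes carry this limit. Where 3 values stand in a row, they belong to controls 1, 2 and 3 in that order. The libraries held 16382394, 17278826 and 16518559 counts, with 15406, 15276 and 15578 of 21899 genes having at least 1 count. Of these genes, 11280 had a mean of at least 1 FPKM and 10686 reached 1 FPKM in every library, whereas 5472 (25%) had no count in any. A further limit, 3 counts in a library, corresponded to 0.183, 0.174 and 0.182 FPKM for a gene of 1000 bases and covers counting error only. At or below 3 counts in every library lay 6940 genes, and such a gene is described here as not detectable at this depth. List members counted below at 1 FPKM in all libraries stand beside 10686 of 21899 genes. Those counted as not detectable stand beside 6940 of 21899. Mitochondrially encoded genes took 11.0%, 8.46% and 12.3% of the summed FPKM and the 83 ribosomal protein genes 6.02%, 8.55% and 6.93%, so control 2 was the lowest in the former and the highest in the latter.

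Of the 10 most abundant transcripts, 6 were mitochondrially encoded, and the others were Eef1a1, B2m, the chaperone gene Hsp90ab1 and the elongation factor gene Eef2. The 10 highest genes held 15.4 ± 0.984% (SD, n = 3) of the summed FPKM, and 8 of them were among the 10 highest in every library. At the top was mt-Co1, a subunit of cytochrome c oxidase, at 13553, 10612 and 14608 FPKM. The other mitochondrial genes among the first 10 were mt-Cytb, mt-Nd1, mt-Nd2, mt-Nd5 and mt-Nd4. Eef1a1, which delivers aminoacyl-tRNA to the ribosome, ranked 2 with 5061, 8030 and 5524 FPKM. B2m, the light chain of MHC class I, ranked 6 at 2765, 2711 and 2407 FPKM and varied little (2628 ± 193, SD, n = 3). Control 2 was the lowest for mt-Co1 and the highest for Eef1a1.

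Among secreted products, fibronectin and osteopontin led. Fn1, the fibronectin gene, stood at 895, 1424 and 899 FPKM and ranked 12. Spp1, which encodes osteopontin, stood at 952, 1220 and 946 FPKM and ranked 14. In both, control 2 lay above the other two libraries, which nearly coincided. Lgals1, encoding the lectin galectin-1, ranked 19 at 1014, 805 and 1013 FPKM, and Cd74, the MHC class II invariant chain, ranked 27 at 778, 630 and 761 FPKM. The 30 highest genes held 22.1 ± 0.837% (SD, n = 3) of the summed FPKM. They included 6 mitochondrial and 9 ribosomal protein genes, and 27 of the 30 were among the 30 highest in each library.

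**Figure D1:**
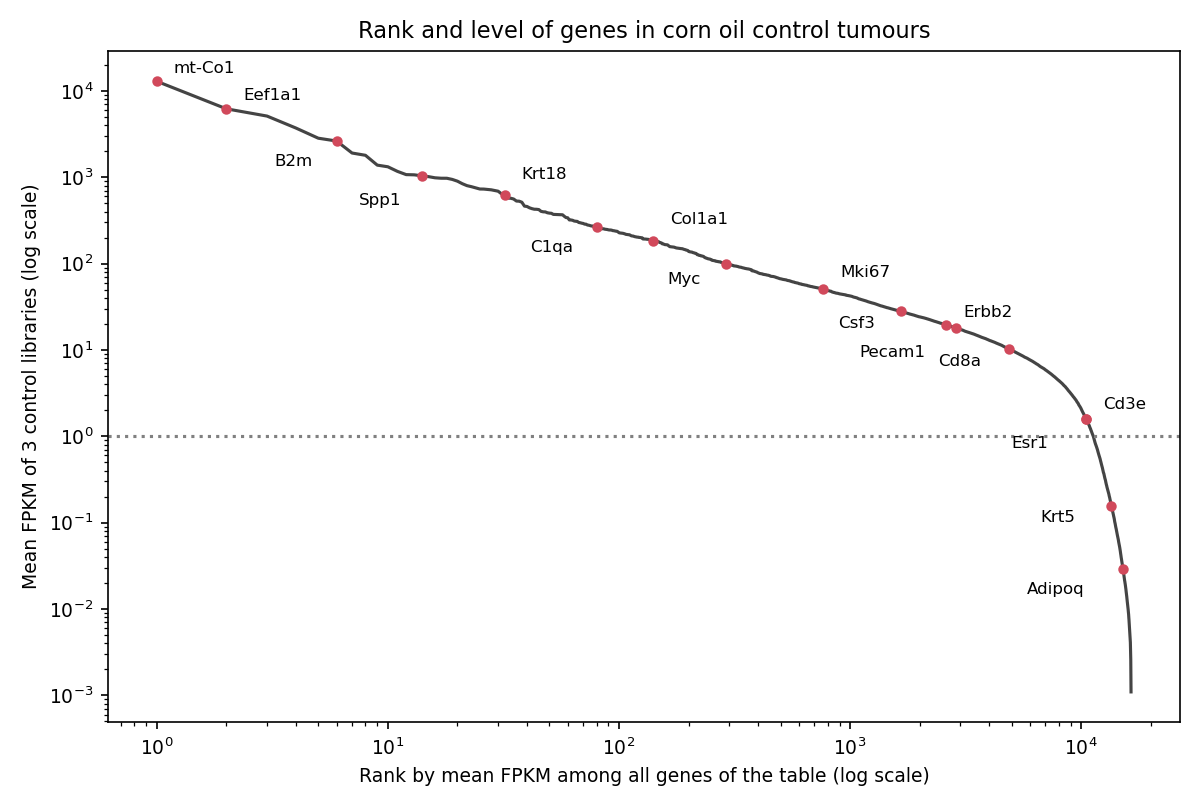
Mean FPKM of the 3 control libraries against the rank of each gene, both on log axes; genes without a count are not drawn and the dotted line marks 1 FPKM. The labelled points run from mt-Co1 at rank 1 through Krt18 at rank 32 and Mki67 at rank 767 to Adipoq below 0.1 FPKM.

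Epithelial markers of the labelled carcinoma were present, led by the keratins Krt18 and Krt8. Of its 22 markers, 18 reached 1 FPKM in all 3 libraries and none was below the detection limit. Krt18 and Krt8, the keratin pair of simple epithelia, stood at 591, 642 and 624 FPKM and at 404, 383 and 407 FPKM, ranks 32 and 47. Epcam, an epithelial adhesion molecule, gave 152, 164 and 149 FPKM, so the highest and lowest libraries were 1.10-fold apart. Cldn4, a tight junction claudin, gave 136, 232 and 186 FPKM. Cdh1, E-cadherin, gave 164, 103 and 126 FPKM, with control 2 the lowest. The simple keratins Krt19 (80.0, 58.7 and 59.8 FPKM) and Krt7 (48.1, 53.1 and 65.3 FPKM) lay near Krt14, a keratin of basal cells, at 46.7, 33.9 and 60.1 FPKM. In contrast to Krt14, its usual partner Krt5 was only at 0.333, 0 and 0.138 FPKM. Trp63, the basal transcription factor, reached no more than 0.979 FPKM, and Cldn7 was at 0.219, 0.149 and 0 FPKM. The summed list came to 1776, 1975 and 1843 FPKM (1865 ± 101, SD, n = 3).

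Hormone receptor and milk genes were mostly at or near 0. Only 4 of 14 list members reached 1 FPKM in all libraries, 8 were not detectable at this depth, and 6 of these had no count: Pgr and Prlr, the progesterone and prolactin receptors, and the milk genes Csn2, Csn1s1, Wap and Lalba. Esr1, the oestrogen receptor, was low and even at 1.55, 1.53 and 1.70 FPKM, rank 10507. Erbb2 stood at 16.5, 22.2 and 19.6 FPKM and Gata3, a luminal transcription factor, at 27.3, 23.2 and 19.4 FPKM. Elf5 and Csn3 had no more than 2 counts in any library.

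Mesenchymal genes were expressed beside the epithelial ones, with 8 of 11 at 1 FPKM or more in every library. Vim, the intermediate filament vimentin, stood at 492, 435 and 462 FPKM and ranked 39. The transcription factors Snai1 (22.3, 25.2 and 23.1 FPKM) and Twist1 (25.5, 28.7 and 24.1 FPKM) were close to each other in level and across libraries. Snai2 (0.634, 0.286 and 1.68 FPKM) and Cdh2, N-cadherin (0.303, 0.208 and 0.218 FPKM), were far lower. S100a4 had 0, 0 and 1 counts, but 51.7% of its exonic bases lie under an exon of another gene in the GENCODE M21 annotation, and whether this set its count was not tested.

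Among drivers of growth, Ccnd1, encoding cyclin D1, was the highest of 20 oncogenes and tumour suppressors by its mean, at 193, 88.6 and 186 FPKM, although Axl, Myc and Mcl1 (95.1 FPKM) exceeded it in control 2. The receptor tyrosine kinase Axl stood at 149, 157 and 137 FPKM, and Myc at 106, 115 and 78.9 FPKM. Egfr was low by comparison, at 2.03, 1.5 and 1.27 FPKM. Trp53 was transcribed at 17.3, 23.3 and 17.6 FPKM. Cdkn2a, which encodes the inhibitors p16 and p19ARF, was the lowest of the list at 0.156, 0.543 and 0.568 FPKM.

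Macrophage markers had the highest summed level of the 24 cell type lists, at 3536, 2933 and 3146 FPKM, although Spp1 and Apoe, which tumour cells can also express, made up most of it. Of 18 markers, 16 reached 1 FPKM in all libraries. Apoe, a lipid carrier, stood at 944, 558 and 760 FPKM. The complement subunit gene C1qa gave 352, 176 and 260 FPKM, and Csf1r, the receptor of macrophage colony-stimulating factor, 40.2, 24.7 and 29.7 FPKM. The lysozyme gene Lyz2 ran in another order, with 233, 363 and 558 FPKM. Marco had a count only in control 1 and was not detectable at this depth. The highest library was control 1 for 13 of the 17 members with a mean of at least 1 FPKM (12 after TMM or RLE scaling). As deposited, control 1 was the highest in 32.6% of all 11280 genes.

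Neutrophil markers were present but uneven. Of 16 markers, 11 reached 1 FPKM in all libraries. The list summed to 219, 381 and 238 FPKM, and Padi4 and Mmp9 made up most of this sum in controls 1 and 3. S100a9, a calcium-binding alarmin, stood at 20.1, 149 and 29.8 FPKM, with control 2 far above the others. Csf3r, the receptor of granulocyte colony-stimulating factor, gave 9.32, 28.0 and 8.42 FPKM. Padi4, which citrullinates histones, was the highest member by its mean and was even, at 83.0, 88.7 and 88.6 FPKM. Mmp9, gelatinase B, ran the opposite way at 83.4, 23.6 and 80.5 FPKM. Genes of early granulocyte precursors were low: Elane gave 0.124, 0.353 and 0 FPKM, and Mpo had 3 counts or fewer in each library.

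The signals that act on these cells were also measured. Csf3, granulocyte colony-stimulating factor, was even at 26.4, 31.0 and 26.4 FPKM, and Csf1, its macrophage counterpart, stood at 39.9, 49.1 and 42.1 FPKM. Il6 (0.729, 0.334 and 0.424 FPKM) and Tnf (0.559, 0.812 and 0.332 FPKM) were below 1 FPKM in every library. Among chemokines for monocytes and lymphocytes, Ccl8 was the highest by its mean but rested on control 1 (276, 4.64 and 24.8 FPKM), Cx3cl1 stood at 113, 70.4 and 73.5 FPKM, and Ccl20 had no count.

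Lymphocyte markers were low. Of 12 T cell markers, 6 reached 1 FPKM in all libraries, a share close to the 10686 of 21899 over all genes. The list summed to 43.8, 19.0 and 39.0 FPKM. Cd8a, the CD8 alpha chain, stood at 12.9, 5.63 and 12.2 FPKM, and Cd4 at 1.80, 0.316 and 0.541 FPKM. Cd3e, a chain of the T cell receptor complex, gave 1.94, 1.08 and 1.74 FPKM. The cytotoxic gene Gzmb was higher than any T cell marker, with 103, 24.6 and 35.1 FPKM, and it was the highest of 9 natural killer cell markers, although Klrb1c, a receptor of these cells, was not detectable at this depth. Of 8 B and plasma cell markers only Jchain passed 1 FPKM, at 4.41, 1.68 and 2.93 FPKM. Of 5 eosinophil markers none reached 1 FPKM, and Prg2 and Il5ra had no count. The only mast cell and basophil marker of 7 above 1 FPKM in all libraries was Mcpt8, at 2.14, 1.86 and 1.58 FPKM.

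Immune checkpoint genes were all measurable, with 15 of 15 at 1 FPKM or more in each library. Nt5e, which encodes the ectoenzyme CD73, was the highest by its mean, at 79.0, 58.2 and 58.8 FPKM. Next came Lgals9 with 45.1, 57.0 and 52.8 FPKM and Tigit with 81.8, 24.1 and 45.8 FPKM, a receptor of T and natural killer cells whose level exceeded that of Cd3e. Cd274, which encodes PD-L1, stood at 17.8, 12.4 and 12.0 FPKM, and Ctla4 was the lowest member at 1.41, 1.49 and 2.03 FPKM. Antigen presentation genes were abundant: H2-D1, an MHC class I heavy chain, gave 499, 415 and 385 FPKM, and H2-Ab1 of class II 165, 115 and 167 FPKM. All 9 class I and 7 class II members reached 1 FPKM in every library.

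Vessel markers were mostly low, and collagen genes of the stroma were high. Of 12 endothelial markers, 11 reached 1 FPKM in all libraries, led by Plvap at 25.4, 27.9 and 21 FPKM, Cdh5, the endothelial cadherin, at 14, 27.1 and 15 FPKM, and Pecam1, the adhesion molecule CD31, at 20.2, 18.7 and 15.3 FPKM. Acta2, smooth muscle actin, gave 58.7, 91.0 and 49.0 FPKM. Tagln, its usual companion, had 1, 1 and 0 counts, with 67.9% of its exonic bases under exons of other genes, and the part of this overlap was not tested. Of the fibroblast markers, Col1a1, a chain of type I collagen, stood at 217, 64.8 and 267 FPKM and Col3a1 at 116, 26.0 and 147 FPKM, so control 2 was the lowest in both. Pdgfra, a receptor of fibroblasts, was even at 9.33, 8.99 and 9.49 FPKM.

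Markers of neighbouring tissue varied more. Skeletal muscle genes summed to 165, 30.5 and 310 FPKM over 14 markers, of which 5 reached 1 FPKM in all libraries. Acta1, skeletal actin, gave 56.5, 1.66 and 82.0 FPKM, Tnni2, a fast troponin, 42.9, 20.6 and 58.6 FPKM, and Tnnt3 15.3, 3.66 and 48.5 FPKM. Control 3 was the highest and control 2 the lowest in each. Fat and skin were hardly represented. Of 10 adipocyte markers 8 were not detectable at this depth, among them Adipoq and Plin1, and Fabp4, which endothelium and macrophages also express, stood at 1.43, 2.49 and 3.24 FPKM. Of 10 skin markers 8 were not detectable, with no count for Krt1, Flg2, Ivl, Krt25, Krt71, Krt77 and Dsg1a, whereas the keratin gene Krt15 gave 16.8, 3.64 and 5.07 FPKM. The list of other organs, from Alb of the liver to Umod of the kidney, had no member at 1 FPKM in all libraries, and 8 of 18 had no count. None of the 172 Y chromosome genes in the table had a count.

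The median level of a list's members was 44.8 FPKM for macrophages, 28.7 for tumour epithelium and 8.36 for fibroblasts. It was 5.50 FPKM for neutrophils, 3.92 for endothelium and 1.39 for T cells. These medians include members with a mean below 1 FPKM. The median of 8.38 FPKM over the 11280 genes with a mean of at least 1 FPKM leaves such genes out, so it is no like comparison.

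**Figure D2:**
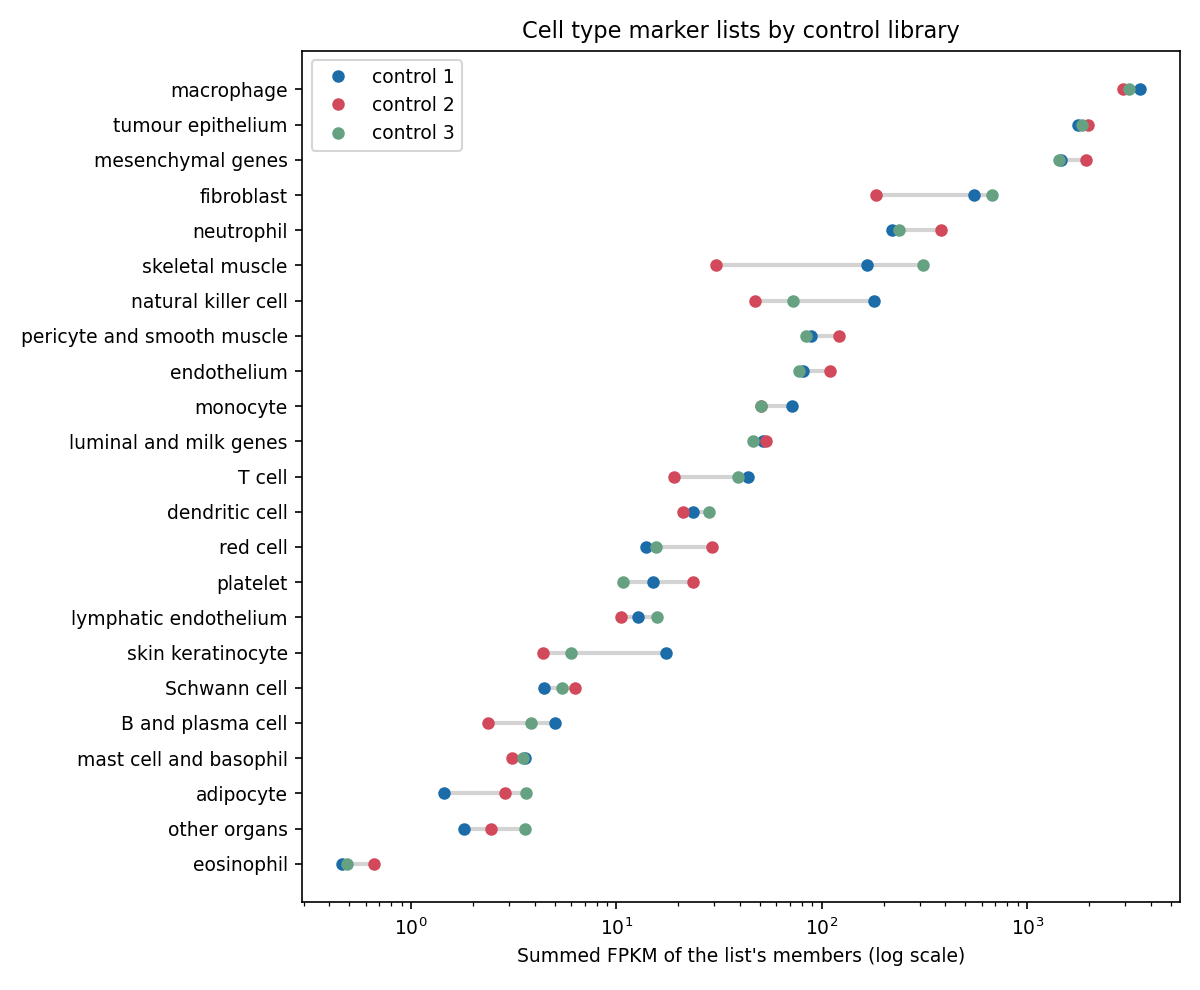
Summed FPKM (log axis) of each cell type list that had a count, 1 point per control library, with lists ordered by their mean. Macrophage and tumour epithelium lists lie at the top with narrow ranges, and the skeletal muscle list runs from 30.5 FPKM in control 2 to 310 FPKM in control 3.

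The 3 libraries ranked genes alike but differed by more than counting error. Across the 11280 genes with a mean of at least 1 FPKM, Pearson's r of log2(FPKM + 1) was 0.979 for controls 1 and 3, 0.961 for controls 2 and 3 and 0.946 for controls 1 and 2, with Spearman's rho of 0.977, 0.957 and 0.941. Genes are not independent replicates, and these are descriptions. With genes of few counts over a pair left out, 14057, 14045 and 13920 genes remained for those pairs. Over them the chi-square of the counts per degree of freedom was 21.4, 47.6 and 67.1. Sampling noise alone gives a value near 1, far below these, so no pair looked like 1 library deposited again. By a chi-square test per gene with Benjamini-Hochberg adjustment at 0.05, 8884 genes (78.8%) differed beyond counting error, and without control 2 the count was 5428. The median coefficient of variation was 13.6% (quartiles 8.18% and 22.5%) and fell to 8.61% without control 2.

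The larger differences between libraries set control 2 apart. In 958 genes (8.49%) the highest library was at least 2-fold above the lowest after adding 0.5 FPKM, and this count was 208 without control 2 and 525 without control 1. Over a fixed set of genes, leaving a library out can only lower such a count. Counts without a library, here and for the lists below, are therefore descriptions and no test. The library farthest from the median of the 3 on the log2 scale was control 2 in most: it was the low library in 504 of these genes (4.47%) and the high library in 166 (1.47%). Control 1 was high in 133 (1.18%) and low in 86 (0.762%), and control 3 was high in 34 (0.301%) and low in 35 (0.31%). Of all 11280 genes, control 2 was the lowest library in 45.1% and the highest in 33.8%, control 1 was the lowest in 36.8% and control 3 in 18.0%. The gene lists and their members were chosen with earlier results of these data known. Setting list counts beside shares of all genes is therefore a description and no test.

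**Figure D3:**
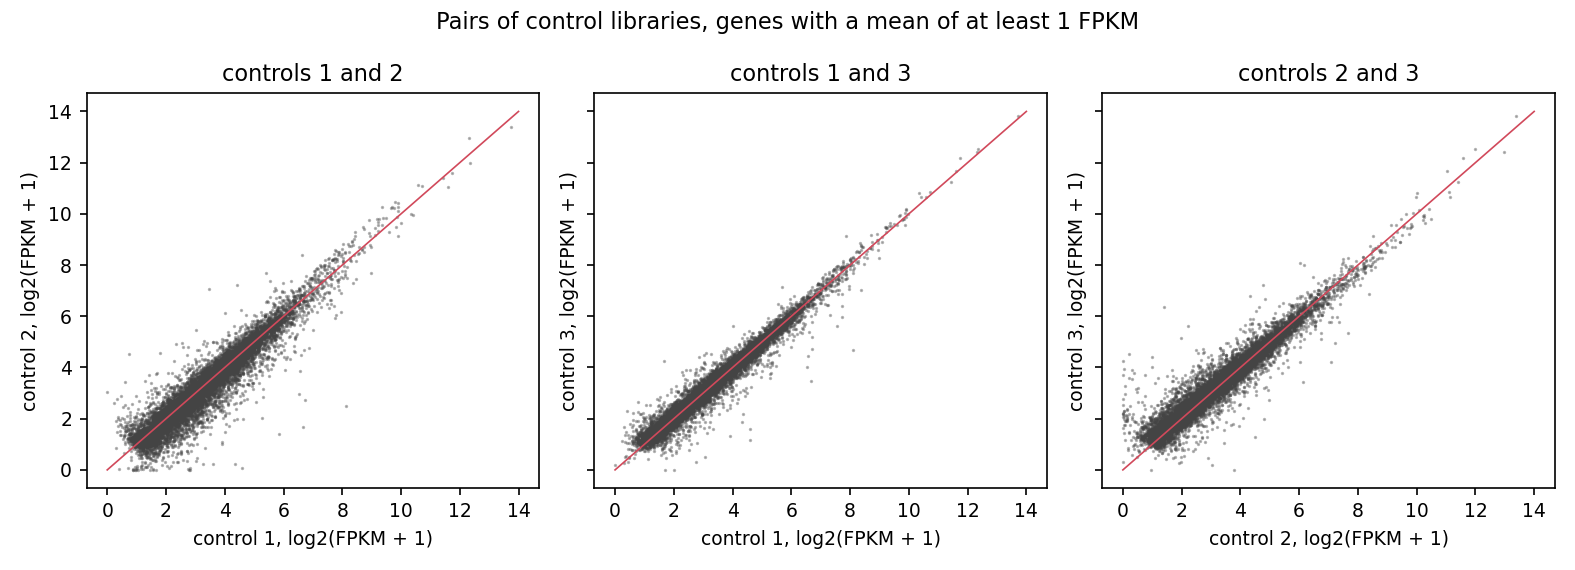
Log2(FPKM + 1) of each gene in pairs of control libraries, for the 11280 genes with a mean of at least 1 FPKM; the line marks equal values. Points lie closest to the line for controls 1 and 3 (r = 0.979) and are most scattered for controls 1 and 2 (r = 0.946).

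Genes of the cell cycle list were uniformly lower in control 2. All 20 members of the cell cycle list passed 1 FPKM in each library, and all 20 were lowest in control 2 under every scaling tried. As deposited, control 2 was the lowest in 45.1% of all genes. At least 2-fold apart were 14 of the 20, beside 8.49% of all genes. Mki67, the proliferation antigen Ki-67, stood at 73.4, 19.0 and 58.6 FPKM, Top2a, topoisomerase II alpha, at 64.0, 20.0 and 52.6 FPKM, and Rrm2, a subunit of ribonucleotide reductase, at 25.8, 5.76 and 23.0 FPKM. Pcna, the sliding clamp of replication, differed less, at 69.8, 43.0 and 67.9 FPKM. So did Cdkn1a, a list member that encodes an inhibitor of the cell cycle, at 11.2, 7.33 and 9.75 FPKM. Without control 2, none of the 20 was 2-fold apart. Control 2 also had the lowest mitochondrial share, fibroblast list and muscle list, and their part in this difference was not tested.

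Fibroblast and matrix genes ran the same way with exceptions. All 12 fibroblast markers had a mean of at least 1 FPKM and were lowest in control 2 (11 after TMM or RLE scaling). As deposited, control 2 was the lowest in 45.1% of all 11280 genes. At least 2-fold apart were 10 of the markers, beside 8.49% of all genes, and 2 of them were still so without control 2. The list summed to 553, 183 and 673 FPKM. Postn, the matricellular protein periostin, gave 55.6, 22.0 and 73.5 FPKM, and Dcn, the proteoglycan decorin, 5.4, 2.98 and 8.29 FPKM. Of 19 collagen and matrix genes, 14 were lowest in control 2 (13 after TMM or RLE scaling), such as Col6a1 at 210, 83.8 and 115 FPKM. Basement membrane collagen and thrombospondin went the other way: Col4a1 gave 106, 167 and 107 FPKM and Thbs1 96.9, 333 and 117 FPKM. Sparc, a collagen-binding glycoprotein and the highest gene of this list by its mean, stood at 286, 179 and 297 FPKM, below Thbs1 in control 2.

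Lymphocyte markers were lowest in control 2 as well. Each of the 7 T cell markers with a mean of at least 1 FPKM was lowest there, and so were 5 of 6 natural killer cell markers. As deposited, control 2 was the lowest in 45.1% of all genes. Of the T cell markers 4 were at least 2-fold apart, beside 8.49% of all genes, and none was so without control 2. Of the natural killer cell markers 5 were 2-fold apart, with 3 still so without control 2 and 2 without control 1. Gzma, a granule protease, gave 37.7, 3.05 and 11.0 FPKM, so that control 1 stood above and control 2 below. Prf1, the pore-forming protein perforin, was the exception, with 17, 10.4 and 5.90 FPKM and control 3 the lowest.

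Most neutrophil genes and neutrophil chemokines were highest in control 2. Of the 12 neutrophil markers with a mean of at least 1 FPKM, 11 were highest in control 2 under every scaling tried. As deposited, control 2 was the highest in 33.8% of all genes. Among the 12 markers, 9 were 2-fold apart, beside 8.49% of all genes, and in 8 of these control 2 was the high library. None was 2-fold apart without control 2. Lcn2, the iron-scavenging lipocalin made by neutrophils and epithelium (chromosome 2, 32274645 to 32278264 as the table gives it), stood at 9.91, 133 and 17.7 FPKM. Control 2 was also the high library for ligands of the neutrophil receptor Cxcr2: Cxcl2 (chromosome 5, 91051730 to 91053797) gave 0.679, 21.8 and 1.43 FPKM, Cxcl1 2.44, 22.4 and 6.62 FPKM, and Cxcl5 0.393, 6.46 and 0.390 FPKM. Cxcr2 itself gave 1.10, 5.39 and 1.35 FPKM. These ligands were named for their wide range with control 2 high, so their direction was set by that choice. Of 13 colony factors and neutrophil chemokines with a mean of at least 1 FPKM, 10 were highest in control 2, 2 in control 1 and 1 in control 3. At least 2-fold apart were 7, with control 2 the high library in 5 and control 1 the odd one in the rest. Il1b, a cytokine of myeloid cells, was less far apart at 24.8, 50.4 and 40.0 FPKM, with control 1 the lowest. Haemoglobin genes of red cells were highest in control 2 too, Hba-a1 at 4.36, 11.0 and 5.96 FPKM and Hbb-bs at 7.63, 15.4 and 7.57 FPKM, and whether blood in the sample had a part was not tested.

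The promoters of Cxcl1 and Cxcl2 are shown because both ligands were among the 10 genes with the widest range in which control 2 was high. These are the 250 bases upstream of the start in RefSeq, build GRCm38.p6, both on the plus strand: chr5:90890995-90891244 for Cxcl1 and chr5:90903649-90903898 for Cxcl2. Capitals mark each match to the core of a kappa-B site, read as GGG, any 2 bases and TTTCC, searched on both strands.
Cxcl1: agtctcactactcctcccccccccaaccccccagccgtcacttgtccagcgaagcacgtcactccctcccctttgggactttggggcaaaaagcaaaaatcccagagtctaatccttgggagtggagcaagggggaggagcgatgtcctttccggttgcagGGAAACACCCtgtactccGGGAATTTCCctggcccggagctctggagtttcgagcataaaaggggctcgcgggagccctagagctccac
Cxcl2: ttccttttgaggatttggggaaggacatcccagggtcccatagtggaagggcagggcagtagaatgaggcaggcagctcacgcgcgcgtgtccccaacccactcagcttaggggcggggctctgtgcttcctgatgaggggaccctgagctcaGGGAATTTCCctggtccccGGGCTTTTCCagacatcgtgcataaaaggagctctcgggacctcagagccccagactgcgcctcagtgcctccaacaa
Each window holds 2 matches and the window of Cxcl3 holds 1, beside 1.41% of all 32851 promoter windows of this length with at least 1. Windows of Lcn2, S100a8, S100a9, Ccl3 and Acod1 held none. A match is a description of letters and no evidence of binding.

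Stress genes were also highest in control 2, but only some members moved far. Of the 11 heat shock genes, 9 were highest in control 2 (7 after scaling to TPM), beside 33.8% of all genes as deposited. Yet 3 were 2-fold apart, beside 8.49% of all genes, and none of them was so without control 2. Hspa1b, an inducible HSP70, stood at 41.2, 204 and 39.7 FPKM and its copy Hspa1a at 0.514, 9.93 and 1.06 FPKM. Hspb1, a small heat shock protein, gave 5.51, 21.4 and 9.75 FPKM. The abundant constitutive chaperones Hspa8 (482, 609 and 500 FPKM) and Hsp90ab1 (1673, 2183 and 1869 FPKM) were highest in control 2 by less than 2-fold. Hsp90aa1 (213, 215 and 199 FPKM) and Hsph1 (26.6, 26.9 and 25.9 FPKM) were nearly even. Of 10 immediate early genes, 9 were highest in control 2 under every scaling tried. Fos, a subunit of the AP-1 factor, gave 7.14, 42.7 and 17.2 FPKM and Dusp1, a phosphatase of MAP kinases, 5.79, 26.6 and 8.08 FPKM, whereas the related Fosb was highest in control 3 at 2.32, 2.50 and 4.01 FPKM.

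The promoters of the HSP70 pair are shown because their copies are so alike that the split of reads between them is uncertain. Both 250-base windows lie on the minus strand in RefSeq, build GRCm38.p6, at chr17:34972157-34972406 for Hspa1a and chr17:34959239-34959488 for Hspa1b. Capitals mark the match to GAANNTTC, a pair of inverted heat shock units, searched with TTCNNGAA on both strands.
Hspa1a: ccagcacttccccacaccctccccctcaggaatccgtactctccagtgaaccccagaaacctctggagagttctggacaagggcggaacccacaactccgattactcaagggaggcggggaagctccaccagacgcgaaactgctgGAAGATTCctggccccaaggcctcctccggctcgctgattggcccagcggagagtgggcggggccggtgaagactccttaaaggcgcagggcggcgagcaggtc
Hspa1b: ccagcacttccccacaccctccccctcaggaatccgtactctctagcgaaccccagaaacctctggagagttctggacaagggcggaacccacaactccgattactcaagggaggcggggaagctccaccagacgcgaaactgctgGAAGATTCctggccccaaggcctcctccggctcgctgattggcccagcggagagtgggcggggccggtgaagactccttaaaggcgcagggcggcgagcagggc
The windows share 247 of 250 positions (98.8%) and the motif at base 147. GAANNTTC occurs in 6.69% and TTCNNGAA in 7.17% of all promoter windows. Hspb1 held 2 matches to the former, Hsph1 1 match to the latter and Dnajb1 none of either, although Dnajb1 gave 25.6, 48.4 and 26.2 FPKM.

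Glycolysis and hypoxia genes were highest in control 2 and lowest in control 3. Of 16 glycolysis genes 14 were highest in control 2 (15 after TMM or RLE scaling). Control 3 was the lowest in 12 of the 16 (14 under the other scalings). As deposited, control 2 was the highest in 33.8% of all genes and control 3 the lowest in 18.0%. Only Slc2a1, the glucose transporter GLUT1, was 2-fold apart, at 64.9, 91.7 and 44.1 FPKM. At 1 of 16 this is close to the 8.49% of all genes. Pkm, pyruvate kinase, was the most abundant of the list at 382, 415 and 313 FPKM. Of 15 hypoxia genes 11 were highest in control 2 (10 to 12 by scaling) and 12 lowest in control 3 (13 under the other scalings). Ndrg1 stood at 56.5, 106 and 34.0 FPKM, Hilpda, a lipid droplet protein, at 16.3, 41.3 and 12.8 FPKM, and Car9, a carbonic anhydrase of hypoxic tumours, at 30.0, 46.8 and 25.4 FPKM. Vegfa, the vascular growth factor, was close in controls 1 and 2 and lower in control 3, at 42.0, 38.8 and 23.4 FPKM. Of the hypoxia genes 6 were 2-fold apart, a number that fell to 2 without control 2 and to 1 without control 3.

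**Figure D4:**
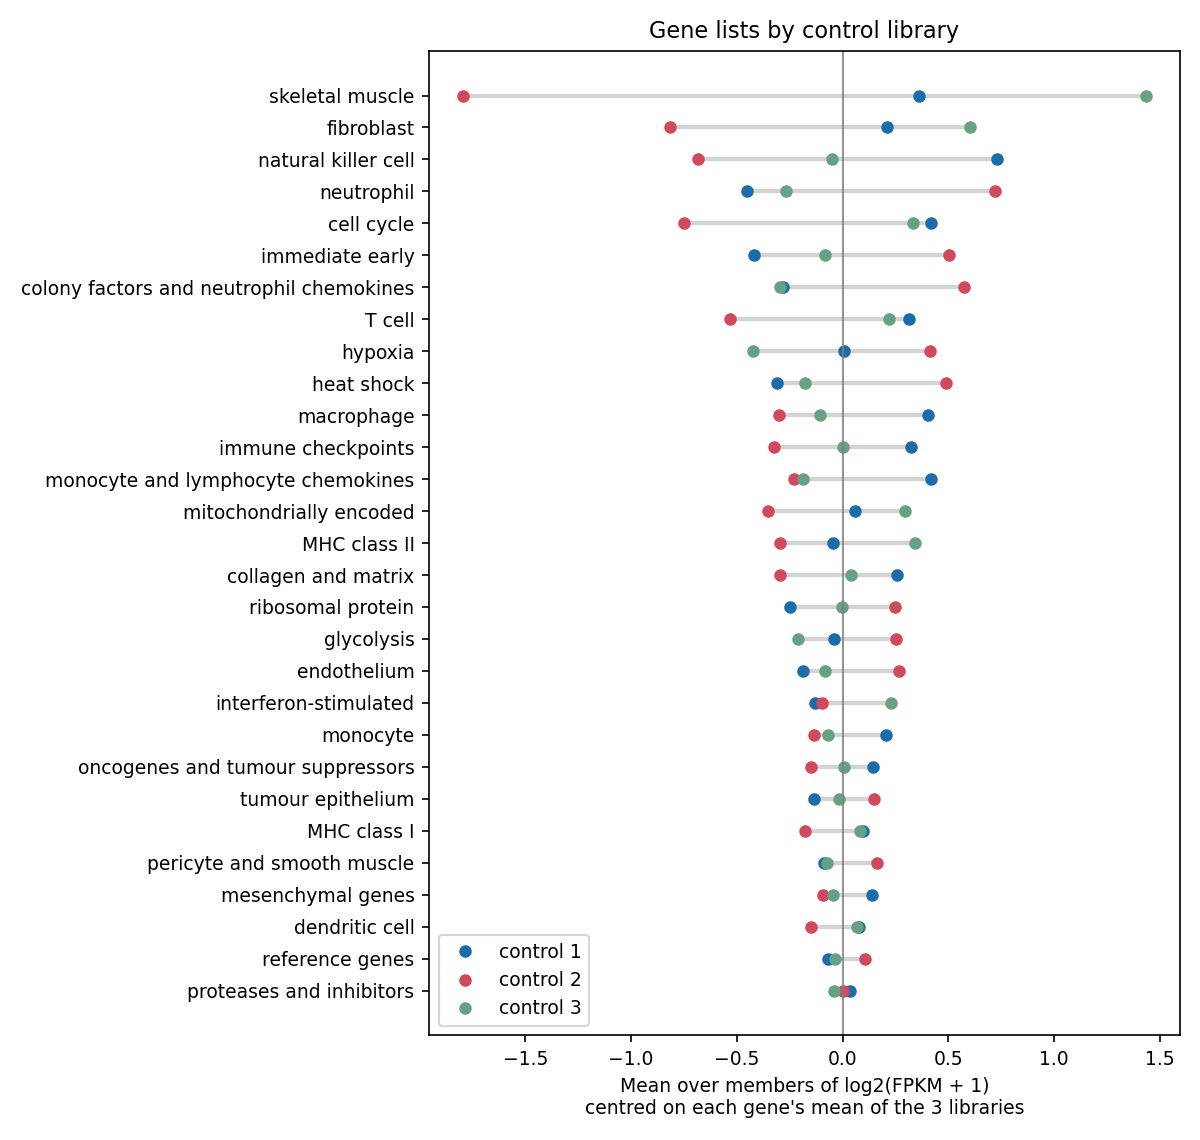
Mean over list members of log2(FPKM + 1), centred on each gene's mean of the 3 libraries, for lists with at least 5 members at a mean of 1 FPKM; each point is 1 control library. Control 2 is the lowest point for skeletal muscle, fibroblast and cell cycle genes and the highest for neutrophil, immediate early and hypoxia genes, and the tumour epithelium list spans a narrow range.

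Control 1 stood apart through genes of macrophages and their secreted products. Ccl8, a monocyte chemokine (chromosome 11, 82006011 to 82007625), led at 276, 4.64 and 24.8 FPKM. Cd163, the haemoglobin scavenger receptor of macrophages, gave 23.0, 0.0424 and 1.24 FPKM, resting on 2060, 4 and 112 counts. Mrc1, the mannose receptor CD206, gave 94.5, 13.5 and 20.8 FPKM, and Arg1, arginase, 330, 155 and 128 FPKM. Retnla, another marker of interleukin 4-stimulated macrophages, stood at 7.34, 0.386 and 0.404 FPKM, and the cytokine gene Il10 at 9.09, 0.795 and 2.03 FPKM. In each, control 1 was the high library. Cd14, a co-receptor for lipopolysaccharide, ran against them with 22.7, 75.1 and 42.3 FPKM, as did Cx3cr1, the fractalkine receptor, with 3.86, 8.04 and 13.2 FPKM. Of the 17 macrophage markers 7 were 2-fold apart, beside 8.49% of all genes, with 1 still so without control 1 and 4 without control 2.

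Prolactin family genes and a cytokine separated all 3 libraries. Prl2c3, a proliferin, gave 101, 2.17 and 9.97 FPKM, and its near-identical relative Prl2c2 19.6, 0.159 and 3.50 FPKM, so reads could have been split between them. Il24 stood at 104, 5.64 and 25.6 FPKM. In all 3 genes control 1 was the highest, control 3 intermediate and control 2 the lowest.

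Skeletal muscle genes differed in all libraries. Each of the 11 markers with a mean of at least 1 FPKM was lowest in control 2 and highest in control 3 under every scaling tried. As deposited, control 2 was the lowest in 45.1% of all genes and control 3 the highest in 33.7%. All 11 markers were 2-fold apart, beside 8.49% of all genes, and 6 of them also without control 2. Myh4, a fast myosin heavy chain (chromosome 11, 67128855 to 67151272), ran from 1 count in control 2 to 1785 counts in control 3, at 2.14, 0.00962 and 18.0 FPKM. Of the 10 genes with the widest range in which control 3 was high, Myh4, Myf6, Myh2, Cacng1, Jsrp1 and Pygm are genes of muscle, and the 10 of control 2 low include Acta1, Actn3, Atp2a1, Sln, Myl1 and Mybpc2. Pvalb, parvalbumin, gave 0.235, 0 and 1.05 FPKM, and Tnnc2, with 74.0% of its exonic bases under Ube2c on the opposite strand, had 0, 0 and 3 counts. Myh7, also below a mean of 1 FPKM, was highest in control 1 instead, at 0.312, 0 and 0.0492 FPKM. A member could pass that mean through control 3 alone, as Myh2 did at 0.821, 0.00811 and 3.56 FPKM. The labels state only that tumours grew under the skin of the chest and abdominal wall, and how much muscle each sample held was not measured.

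**Figure D5:**
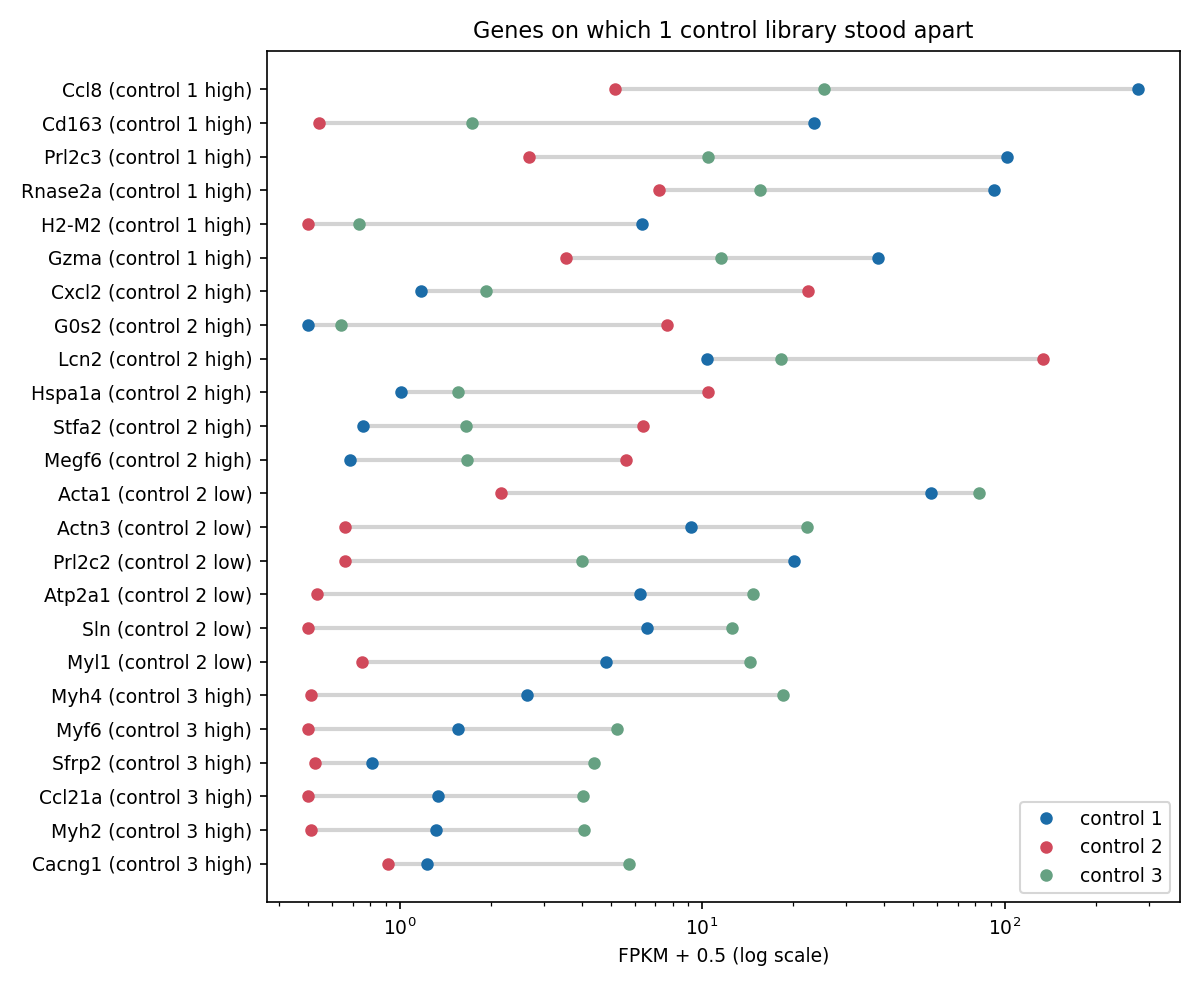
FPKM + 0.5 (log axis) in each control library for 6 genes with the widest range in each of 4 patterns: control 1 high, control 2 high, control 2 low and control 3 high. Ccl8 and Cd163 separate control 1, Cxcl2 and Lcn2 separate control 2 upwards, and muscle genes such as Acta1 and Myh4 are lowest in control 2.

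Control 3 was low for a smaller set of genes. C3, the central complement component, stood at 211, 137 and 61.2 FPKM, Hcar2, a receptor of hydroxybutyrate and niacin, at 6.48, 14.6 and 2.32 FPKM, and Adm, the vasoactive peptide adrenomedullin, at 20.3, 22.3 and 7.55 FPKM. Interferon-stimulated genes leaned the other way but little: 12 of 14 were highest in control 3 (10 to 11 under the other scalings). As deposited, control 3 was the highest in 33.7% of all genes. Of the 14, 1 was 2-fold apart, close to the 8.49% of all genes. Isg15, a ubiquitin-like modifier, gave 39.2, 45.8 and 49.7 FPKM. The exceptions were Ifit1, an RNA-binding antiviral protein highest in control 2 at 8.66, 12.8 and 12.5 FPKM, and Cxcl9, an interferon-gamma chemokine highest in control 1 at 49.1, 16.2 and 42.2 FPKM.

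Many genes were steady. A coefficient of variation below 10% was found for 3780 genes (33.5%) of those with a mean of at least 1 FPKM. Among the 774 genes with a mean of at least 50 FPKM, Prr13 varied least, at 58.7, 58.2 and 58.0 FPKM. Close behind were Srp14, of the signal recognition particle, at 51.3, 51.4 and 52.0 FPKM, and Caprin1, an RNA-binding protein, at 74.1, 74.8 and 75.2 FPKM. H2-T23, a non-classical MHC class I gene, gave 107, 108 and 106 FPKM, and the G protein subunit gene Gnai2 190, 191 and 194 FPKM. Of the 12 reference genes none was 2-fold apart, beside 8.49% of all genes. Among them Eef1a1 spread more than Ywhaz (200, 176 and 198 FPKM) or Tbp (3.11, 3.26 and 3.47 FPKM).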

How the data were processed

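The authors deposited 1 table of counts and FPKM for 21899 genes in 12 libraries. Per the labels' protocols, HISAT2 2.0.5 placed the reads on mm9, HTSeq 0.9.1 gave the counts per gene and the authors scaled these to FPKM. The submitters' processing notes name cutadapt, TopHat2, HISAT2, HTSeq, DESeq 1.30.0 and GRCm39, so the build is stated in 2 ways and gene positions are those of the table. The strand setting is not given in the sources used here. The deposited gene lengths, library totals and counts gave the deposited FPKM for 46260 of 46260 values above 0 (relative tolerance 1e-05).

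The 3 control libraries were grouped by title. Of the rows, 42 share a symbol with another, and the row with more counts was used. FPKM were used as deposited. Between-library differences were counted among genes with a mean of at least 1 FPKM by a 2-fold range (0.5 FPKM added) and by a chi-square test per gene (2 degrees of freedom, expected counts in proportion to library totals, Benjamini-Hochberg at 0.05), which was tested on simulated data. Its p-values cover counting error and compare these libraries, not conditions. Scaling alternatives used TMM (edgeR 4.0.16), RLE (DESeq2 1.42.0) and TPM, under R 4.3.3, and other steps used numpy 2.4.6, scipy 1.17.1 and pandas 2.3.3.

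The 41 lists (24 of cell types, 17 of pathways) held 503 entries, 501 of them in the table. Members and lists were chosen with earlier results of these data known. Named genes were the 30 highest, each list's 3 highest, lowest and undetectable members (all members of lists of 8 or fewer), the 10 of widest range for each library standing apart in each direction, and the 10 steadiest at 50 FPKM or more. Other list members were named after their values were seen, and some named by the rule are not reported here. Exon overlap came from GENCODE M21 (GRCm38) for 21846 genes matched by identifier, and promoters from RefSeq (GRCm38.p6), which matched all genes searched but Hspa8 and Cxcl5.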

Additional observations from a re-analysis of the deposited data

How the results depend on the processing

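No paired analysis was possible because only the control group was analysed. The count of genes at least 2-fold apart (958) became 1797 with TPM, whose values are larger since a library's FPKM sum to only 256752 to 263789, 233 with a pseudocount of 5 and 272 among genes with a mean of at least 10 FPKM. It ranged from 208 to 777 when 1 library was left out. Genes with control 2 high became 269, 51 and 56 under those 3 settings in turn, and genes with control 2 low 872, 102 and 129. Genes beyond counting error became 4368 with a mean of at least 10 FPKM and ranged from 5428 to 7471 with 1 library left out. Without a filter, r was 0.981 for controls 1 and 2, 0.986 for controls 2 and 3 and 0.986 on average, and with a mean of at least 10 FPKM it was 0.910, 0.940 and 0.939. With 1 library left out, the mean r ranged from 0.945 to 0.979, the median coefficient of variation from 8.61% to 14.2% and the common biological coefficient of variation by edgeR (23.7% over all 3) from 15.7% to 29.0%. Without control 2, r was 0.979 and these coefficients 8.61% and 15.7%. Without mitochondrial genes the 10 and 100 highest held 8.20% and 24.0% of FPKM. Of 95 values of the main results under an alternative 70 moved little, while 83 of 328 list levels, 75 of 328 list ranges and 162 of 3300 gene ranks moved by more than the spread between libraries. Reversal was not among the outcomes scored. The shares held by the 10 and 100 highest genes cannot change under TMM, RLE or TPM scaling and are counted among the 70. The order of libraries could change: of 8 mesenchymal genes, control 3 was the lowest in 1 as deposited and in 6 after RLE scaling. Counts of 2-fold members with 1 library left out were added after the data were seen. Of these, 41 of 87 fell by over 1.5 times, and a fall was the only change open to them. Depth limits what can be said of genes at or under the 3-count floor.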

Other observations

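Several genes that textbook knowledge places among abundant transcripts were low in this table. Gapdh, a glycolytic enzyme often used as a reference, stood at 16.7, 17.1 and 13.7 FPKM in controls 1, 2 and 3, rank 3296, whereas its neighbours in the pathway Pgk1 (168, 224 and 160 FPKM) and Eno1 (150, 209 and 150 FPKM) were far higher. Only 1.65% of its exonic bases lie under exons of another gene in GENCODE M21. Among mitochondrially encoded genes, mt-Co1 had a mean of 12924 FPKM, but mt-Co2 stood at 51.0, 47.2 and 65.6 FPKM, mt-Co3 at 28.9, 38.4 and 40.8 FPKM, and mt-Nd3 at 0.702, 0.499 and 1.22 FPKM, while mt-Atp8 had no count. Ribosomal protein genes were uneven in the same way: Rps18 gave 11.3, 13.3 and 13.2 FPKM and Rps19 15.8, 23.1 and 21.9 FPKM, beside 582, 892 and 715 FPKM for Rpsa. How reads that match several places were counted is not given in the sources used here, and its part in these levels was not tested.

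A low count was more frequent among genes that share exons. Of the 21846 matched genes, 629 (2.88%) had at least 50% of their exonic bases under exons of other genes. The share was 5.73% among genes with 3 counts or fewer in every library and 0.763% among genes with a mean of at least 1 FPKM. Of the 59 list members at 3 counts or fewer, 6 were of this kind: Gp1bb, Nppa, Pmp2, S100a4, Tagln and Tnnc2. For the other 53 the low count did not go with such an overlap.

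Proteases of tumour and stroma were all measurable, with 18 of 18 members at 1 FPKM or more in every library. Ctsz, a cathepsin, was the highest at 257, 273 and 231 FPKM, followed by Timp2, an inhibitor of metalloproteinases, at 209, 204 and 166 FPKM. Mmp3, stromelysin 1, was highest in control 2 at 41.7, 92.0 and 53.7 FPKM, whereas Mmp2, gelatinase A, was lowest there at 23.1, 6.92 and 21.3 FPKM. Timp3 was the lowest member, at 5.37, 5.76 and 3.14 FPKM.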
